A study of Mus musculus with 7 samples.

Results

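The genes described here are 10 genes of MHC class I antigen presentation. They are the class I heavy chains H2-K1 and H2-D1, their light chain B2m, the peptide transporter subunits Tap1 and Tap2, the loading chaperone Tapbp, the immunoproteasome subunits Psmb8, Psmb9 and Psmb10, and the transcriptional activator Nlrc5. They are 10 of 53801 gene IDs in the deposited count tables. They were chosen by name, as a known pathway, and partly on their measured level, because H2-D1 and B2m were among the 10 most abundant transcripts of these cells. Their abundance is therefore a description and was not tested.

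The cells were bone marrow mesenchymal stromal cells, the fibroblast-like cells that support blood formation and give rise to bone and fat cells. They came from limb bones of male C57BL/6 mice, a wild-type inbred strain, that were 8 weeks old at the start. Fibroblast activation protein (Fap) is a cell surface protease of stromal cells, and one group of mice (FAPi, n = 4) was given an inhibitor of it at 500 µg/kg in 100 µl. The control group (DPBS, n = 3 mice) received 100 µl of the buffer DPBS. Both were injected intraperitoneally each day for 35 days, and the sources used here do not give the name of the inhibitor. For each mouse 7000 live cells that carried Pdgfra and lacked CD45, Ter119 and Tie2 were sorted, so other cells of the marrow were removed only as far as this gate removes them. Their RNA was amplified by a modified Smart-seq2 method and sequenced as paired reads. The comparison asks whether the class I genes of these cells differed after treatment with the inhibitor.

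The total count per library ranged from 7492570 to 10569690. Levels are CPM (the count as a part of the library's total, scaled to a common size) scaled with TMM factors, which correct for differences in composition between libraries. Fap itself, the target of the inhibitor, was in DPBS libraries at 194 ± 19.7 CPM (SD, n = 3) and in FAPi libraries at 236 ± 28.6 CPM (SD, n = 4). Its log2 difference was 0.29 ± 0.23 (SE, adjusted p = 0.799 in edgeR's quasi-likelihood test), and an enzyme inhibitor need not change the transcript. The 8 listed stromal marker genes summed to between 74109 and 82097 CPM in DPBS and between 85988 and 88135 CPM in FAPi libraries. Igfbp5 made up most of each sum, at 49997 to 65251 CPM, and Pdgfra, used in the sort, was at 316.5 to 439.9 CPM. All 8 markers of the labelled cell type were present in every library, at widely different levels. Erythroid and neutrophil transcripts were also present and were highest in DPBS replicate 2. Their values stand beside the results they touch.

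MHC class I molecules show fragments of a cell's own proteins to CD8 T cells and to natural killer cells. The proteasome cuts proteins into peptides, and the immunoproteasome subunits Psmb8, Psmb9 and Psmb10 take the places of the standard catalytic subunits Psmb5, Psmb6 and Psmb7. The transporter formed by Tap1 and Tap2 moves the peptides into the endoplasmic reticulum. There Tapbp (tapasin) holds the heavy chain, already paired with B2m, next to the transporter until a peptide is bound. Nearly all nucleated cells make class I molecules, and interferons raise many of these genes together. Nlrc5 is itself induced by interferon and acts at class I promoters through the RFX, CREB/ATF and NF-Y factors that bind there. In the b haplotype carried by C57BL/6 mice, H2-K1 and H2-D1 are the classical heavy chains.

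Parts of the promoters are shown because the same short elements recur in genes that were all expressed here. The sequences are from RefSeq on GRCm38.p6, 5′ to 3′ on the strand of the gene, and promoters were found for 8 of the 10 genes, not for Tap2 and Nlrc5. Capitals mark matches to 6 motifs searched on both strands. These were a kappa B motif (GGGNNTNCC), an interferon response motif (ISRE, GAAANNGAA), the same motif in the other order (GAANNGAAA), a STAT or GAS motif (TTCNNNGAA), a CRE core (TGACG) and a Y box (CCAAT), as in the SXY module used by Nlrc5. The ISRE in the other order was added after the sequences had been seen. The pieces lie at chr17:34000328-34000477 (minus strand, H2-K1), chr17:35262908-35262937 (plus strand, H2-D1), chr2:122147542-122147642 (plus strand, B2m), chr17:34187394-34187423 (plus strand, Tap1) and chr17:34198088-34198117 (plus strand, Psmb8). The RefSeq start site lay inside the GENCODE gene for H2-D1 (364 bases from its 5′ end), Psmb9 (434), Psmb8 (474) and Tapbp (3579), so these windows overlap longer transcripts, and only 30 bases are shown for H2-D1, Tap1 and Psmb8.
H2-K1: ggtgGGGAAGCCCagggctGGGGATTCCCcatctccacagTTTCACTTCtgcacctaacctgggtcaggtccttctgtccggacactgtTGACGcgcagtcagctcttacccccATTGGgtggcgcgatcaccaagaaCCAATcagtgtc
H2-D1: GGGAAGCCCagggctGGGGATTCCCcatct
B2m: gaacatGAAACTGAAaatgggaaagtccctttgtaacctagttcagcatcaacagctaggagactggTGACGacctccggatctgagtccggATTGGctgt
Tap1: cgcaagGGGCGTGCCgttctaccagcattt
Psmb8: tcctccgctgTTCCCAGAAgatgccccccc

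The H2-K1 and H2-D1 windows aligned over 240 bases with 176 identical (73.3%), and both held the same order of elements. From upstream these were a kappa B match, a separate set of overlapping kappa B matches, the ISRE in the other order on the opposite strand, the CRE core and a Y box in each orientation. The B2m piece held an ISRE match, a CRE core and a Y box in the reverse orientation. The Tap1 window held a Y box, the kappa B match shown and a CRE core, and it overlaps the window of Psmb9, whose start site lies 225 bases away on the opposite strand. These windows shared 275 bases, so they are largely 1 sequence and not independent examples. Psmb8 held a GAS match alone, Psmb10 a kappa B match alone, and Tapbp 2 Y boxes in the reverse orientation. Such letters are common: among 32851 RefSeq promoters of the same length, 16.4% held the kappa B motif, 8.56% the ISRE, 7.52% the ISRE in the other order, 8.3% the GAS motif, 20.8% the CRE core and 37.4% the Y box. A match describes the sequence and is not a measured binding site.

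All 10 genes passed the filter on low counts, and none differed between FAPi and DPBS at an adjusted p under 0.05. The edgeR test called 0 of all 12930 tested genes, or 0%, at that threshold. At an unadjusted p under 0.05 it gave 0 of the 10 genes, beside 8.14% of all tested genes. DESeq2 called 0 of the 10, beside 1.04% of all tested genes. The estimate was below 0 for 5 of the 10 genes, beside 49.4% of all genes, and the median log2 difference of the 10 was -0.01, beside 0.01 over all genes. Scaled by library size alone, 8 of the 10 estimates were below 0, those of H2-K1, B2m and Nlrc5 among them, and the median of all genes moved by -0.17. Without FAPi replicate 2 also 8 of the 10 were below 0, and without DPBS replicate 1 it was 7. The smallest adjusted p among them was 0.721, for Psmb10. The median absolute log2 difference was 0.20 for the 10 genes and 0.47 over all genes, and their median SE was 0.27 beside 0.62, so the class I genes were also among the more precisely measured.

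**Figure D1:**
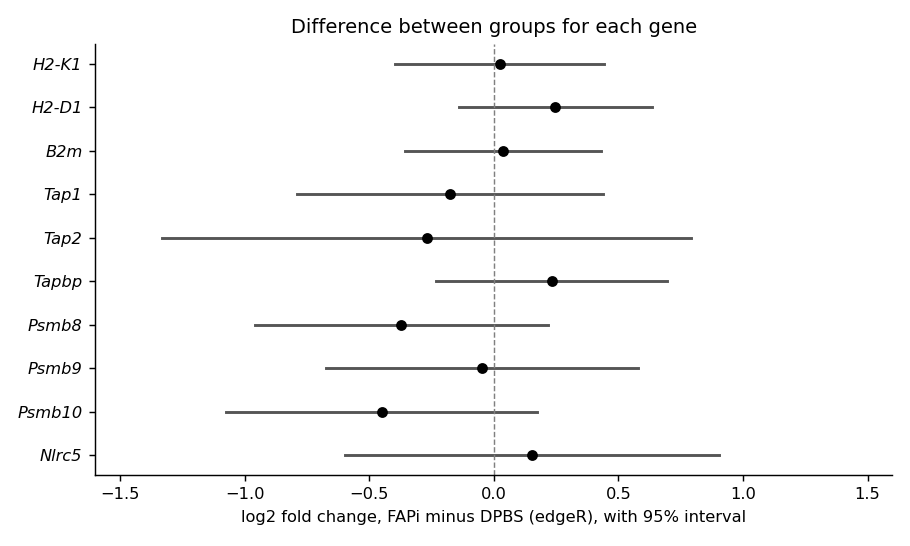
The log2 difference of each class I gene, FAPi minus DPBS, is plotted as a point with its 95% interval from edgeR, on a log2 axis. The interval includes 0 for every gene, and the widest is that of Tap2, from -1.33 to 0.79.

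B2m encodes the invariant light chain that every class I molecule needs to fold and reach the surface. The gene (ENSMUSG00000060802.8, GENCODE M21) lies at chr2:122147686-122153083 on the plus strand and has 4 exons. B2m was at 5248, 5690 and 6577 CPM in the DPBS libraries and at 5690, 6367, 6057 and 5848 CPM in the FAPi libraries. The FAPi values all lay within the DPBS range. Its log2 difference was 0.04 ± 0.18 (SE, adjusted p = 0.985), with a 95% interval of 0.78 to 1.35 as a fold. By mean level B2m was the 7th most abundant gene, and it was among the 10 most abundant in 6 of the 7 libraries.

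H2-K1 encodes a classical heavy chain, the part of the molecule that binds the peptide. The gene (ENSMUSG00000061232.15) lies at chr17:33996017-34000347 on the minus strand, within the MHC, and has 8 exons. H2-K1 was at 1972, 2293 and 2046 CPM in DPBS and at 2191, 2405, 1973 and 1987 CPM in FAPi libraries. These groups overlapped almost completely, with means of 2104 ± 168 (SD, n = 3) and 2139 ± 203 (SD, n = 4). The log2 difference was 0.02 ± 0.19 (SE, adjusted p = 0.993), and the 95% interval ran from 0.761-fold to 1.36-fold.

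H2-D1 encodes the other classical heavy chain and was the most abundant of the 10 genes by CPM. The gene (ENSMUSG00000073411.11) lies at chr17:35262730-35267499 on the plus strand. H2-D1 was at 7257, 6445 and 7334 CPM in DPBS and at 8199, 9250, 7826 and 8014 CPM in FAPi libraries. Every FAPi library was above every DPBS library, which was the case for 3.39% of all tested genes. The log2 difference was 0.25 ± 0.18 (SE, unadjusted p = 0.188, adjusted p = 0.755), and it did not pass the test. The separation also depended on the scaling, since on the deposited CPM, which use the library size alone, the groups overlapped (6613 to 8560 in DPBS, 7592 to 8423 in FAPi). The fitted log2 difference was then 0.06.

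The ratio of H2-D1 to H2-K1 within a library does not depend on how libraries are scaled. Per kb of exon, H2-D1 stood at 2.90, 2.21 and 2.82 times H2-K1 in the DPBS libraries and at 2.95, 3.03, 3.12 and 3.18 times in the FAPi libraries. All FAPi ratios were above all DPBS ratios, but the nearest values, 2.90 and 2.95, were close, and DPBS replicate 2 was the lowest. The ratio of B2m to the sum of both heavy chains was 1.47 ± 0.153 in the 3 DPBS libraries (SD) and 1.33 ± 0.0808 in the 4 FAPi libraries (SD), with overlapping groups. These ratios were looked at after the levels had been seen and were not tested.

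Divided by exon length, which allows genes to be compared, B2m was highest at a mean of 6890 CPM per kb over the 7 libraries. H2-D1 followed at 3692, H2-K1 at 1283 and Tapbp at 272.5 CPM per kb, and no library of one of these genes reached the range of the next. Psmb8 at 80.96, Psmb10 at 76.47 and Psmb9 at 72.08 CPM per kb overlapped one another and cannot be ordered. Tap1 stood below them in every library, at 40.95 CPM per kb. Nlrc5 at 7.28 and Tap2 at 6.19 CPM per kb were lowest and overlapped, with Nlrc5 above Tap2 in 5 of the 7 libraries. The 10 genes together held 1.73 ± 0.113% of all counts in DPBS (SD, n = 3) and 1.68 ± 0.0808% in FAPi (SD, n = 4), and H2-D1 with B2m made up 76.9% to 81.4% of that share.

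**Figure D2:**
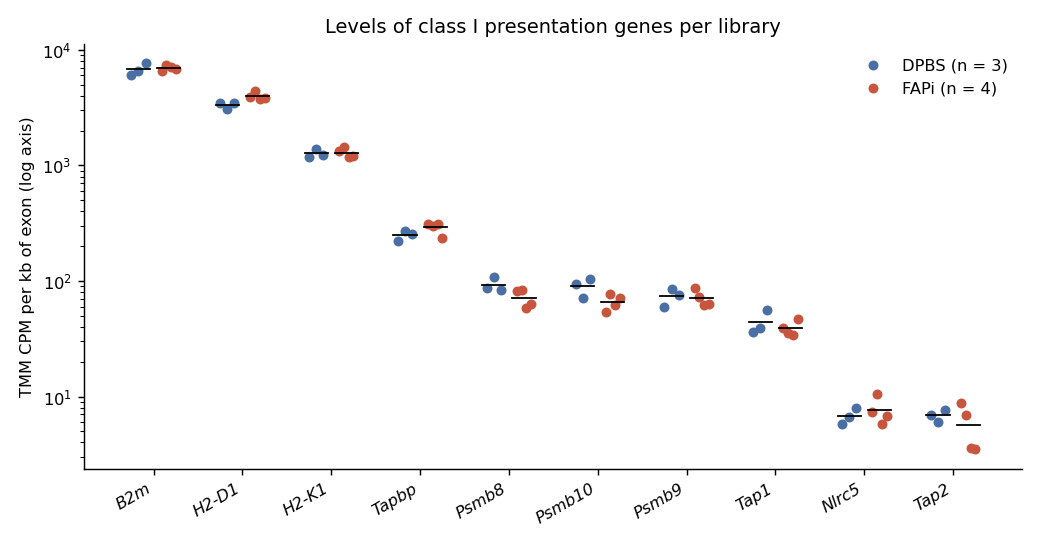
TMM-scaled CPM per kb of exon is plotted on a log axis for each class I gene, with 1 point per library, blue for DPBS (n = 3) and red for FAPi (n = 4), and a line at each group mean. The genes run from B2m at 6890 CPM per kb to Tap2 at 6.19, and the distance between genes is far larger than that between the groups.

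B2m and the heavy chains were also among the most even of the abundant genes. Over all 7 libraries the coefficient of variation (CV, the SD as a percent of the mean) was 7.59% for B2m, the lowest of the 50 most abundant genes. H2-K1, at 8.22%, was 2nd and H2-D1, at 11.3%, was 8th of these 50, whose median was 23.7%. On the deposited CPM the same genes took places 2, 4 and 3. Of the other 7 genes, Tapbp (13.6%) and Psmb9 (15.3%) had the lowest CV and Tap2 (32.5%) the highest, beside a median of 54.3% over all tested genes, many of which have far fewer counts. This evenness was noticed in the data and is a description.

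Tap1 and Tap2 each supply one side of the peptide transporter. Tap1 (ENSMUSG00000037321.17) lies at chr17:34187553-34197225 and Tap2 (ENSMUSG00000024339.12) at chr17:34203527-34216321, both on the plus strand, with Psmb8 between them. Tap1 was at 106.2, 116 and 166 CPM in DPBS and at 116, 104.4, 100.6 and 137 CPM in FAPi libraries. DPBS replicate 3 was the highest and the other libraries of both groups overlapped. The log2 difference of Tap1 was -0.17 ± 0.28 (SE, adjusted p = 0.922), and it was 0.04 without DPBS replicate 3.

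Tap2 was at 24.01, 20.6 and 26.2 CPM in DPBS and at 30.3, 23.8, 12.23 and 12 CPM in FAPi libraries. FAPi replicates 3 and 4 were at about equal levels below every DPBS library, and FAPi replicate 1 was above every DPBS library. Its log2 difference was -0.27 ± 0.48 (SE, adjusted p = 0.932), and it was -0.56 without FAPi replicate 1 and -0.09 without FAPi replicate 4. With 86 to 278 counts per library, Tap2 had the lowest counts and the widest interval of the 10 genes. Per kb, Tap1 stood at 5.16 to 7.38 times Tap2 in DPBS and at 4.47 to 13.3 times in FAPi libraries. Where genes overlap on opposite strands, counting without strand cannot tell their reads apart. Of the Tap2 exon bases 15% lie opposite Gm15821, and Tap1 and Psmb9 share 212 exon bases on opposite strands.

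Tapbp (ENSMUSG00000024308.14, chr17:33915899-33929292, plus strand) was the most abundant of the loading genes. Tapbp was at 645, 777 and 732 CPM in DPBS and at 908, 872, 906 and 687 CPM in FAPi libraries. In 3 of the 4 FAPi libraries it was above every DPBS library, and FAPi replicate 4 fell within the DPBS range. The log2 difference was 0.23 ± 0.21 (SE, adjusted p = 0.825). Of its exon bases 23.5% lie opposite Gm19412, whose reads could not be told apart without strand.

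Psmb8 is the immunoproteasome counterpart of Psmb5, the subunit with chymotrypsin-like activity. The gene (ENSMUSG00000024338.14) lies at chr17:34197721-34201454 on the plus strand. Psmb8 was at 140.3, 177 and 137.1 CPM in DPBS and at 132.3, 136.9, 95.9 and 103.2 CPM in FAPi libraries. Every FAPi library was below every DPBS library, by the narrow margin of 136.9 to 137.1, and the same was so on the deposited CPM. On the TMM-scaled values such a separation occurred for 3.95% of all tested genes, and the share on the deposited CPM was not counted. The log2 difference was -0.37 ± 0.27 (SE, adjusted p = 0.759), and it did not pass the test.

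Psmb10 is the counterpart of Psmb7, which has trypsin-like activity. Unlike the other immunoproteasome genes, Psmb10 (ENSMUSG00000031897.9) lies outside the MHC, at chr8:105935735-105938444 on the minus strand. Psmb10 was at 123.9, 93.68 and 137.5 CPM in DPBS and at 70.9, 101.5, 80.6 and 93.67 CPM in FAPi libraries. DPBS replicate 2 lay among the FAPi libraries, and the other DPBS libraries were above all FAPi libraries. On the deposited CPM the groups were separate, at 96.1 to 146 in DPBS and 72.9 to 89.6 in FAPi. The share of all genes separate on that scale was not counted, and library size alone moved the median of all genes by -0.17. Psmb6, Pdia3, H2-Q6 and H2-M3 were also lower in every FAPi library on the deposited CPM alone. The log2 difference was -0.45 ± 0.28 (SE, adjusted p = 0.721), with a 95% interval from 0.475-fold to 1.13-fold.

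Psmb9, the counterpart of Psmb6, which cuts after acidic residues, is transcribed away from Tap1. The gene (ENSMUSG00000096727.2) lies at chr17:34181987-34187764 on the minus strand. Psmb9 was at 80.7, 114.1 and 102.9 CPM in DPBS and at 117.5, 98.2, 83.6 and 85.2 CPM in FAPi libraries. The groups overlapped over nearly their whole range, and the log2 difference was -0.05 ± 0.28 (SE, adjusted p = 0.987). Its neighbour Tap1 was highest in DPBS replicate 3 and Psmb9 in FAPi replicate 1.

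Each immunoproteasome gene was set beside the standard subunit that it replaces. The ratios differed widely between the pairs, so they do not measure how much of the proteasome message was of the immune kind. Psmb5 was at 51.3, 26.5 and 29.4 CPM in DPBS and at 44.2, 22.1, 54.5 and 66.2 CPM in FAPi libraries (log2 difference 0.39 ± 0.45, SE, adjusted p = 0.881). Per kb, Psmb8 stood at 2.59 ± 1.09 times Psmb5 in DPBS (SD, n = 3) and at 1.73 ± 1.18 times in FAPi (SD, n = 4), with overlapping groups. Psmb6 was the most abundant standard subunit, at 123 to 347 CPM over all libraries, with a log2 difference of -0.48 ± 0.31 (SE, adjusted p = 0.723). Psmb9 stood at 0.214 ± 0.0172 times Psmb6 in DPBS and at 0.321 ± 0.166 times in FAPi, where FAPi replicate 1 was highest at 0.565. Psmb7 was at 5.94 to 24.1 CPM in DPBS and at 3.23 to 19.8 CPM in FAPi (log2 difference -0.80 ± 0.83, SE, adjusted p = 0.857). That difference was -0.06 without DPBS replicate 2 and -1.89 without FAPi replicate 1. Psmb10 stood at 11.6 ± 8.55 times Psmb7 in DPBS and at 18.0 ± 10.5 times in FAPi. The Psmb7 level is uncertain, because 34.9% of its exon bases lie opposite Nek6.

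**Figure D3:**
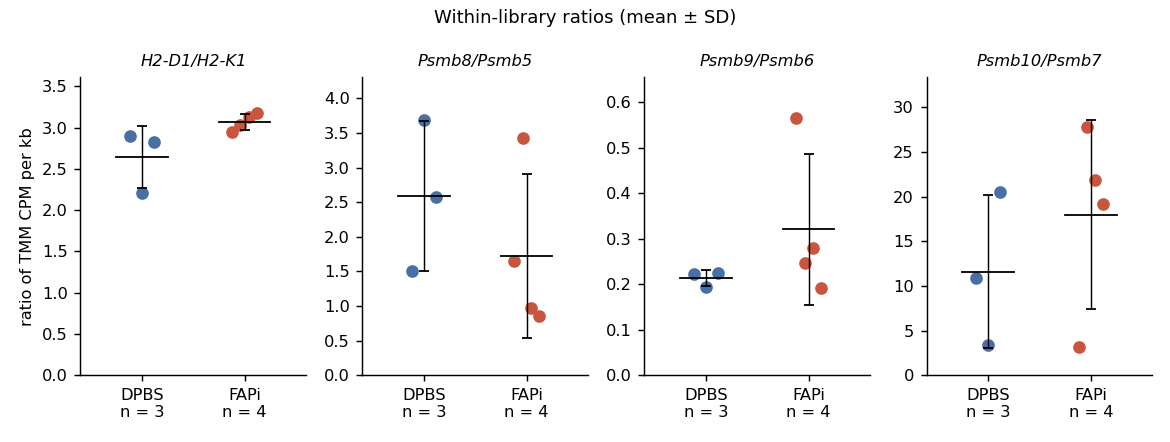
Ratios of CPM per kb within each library are plotted for H2-D1 over H2-K1 and for each immunoproteasome subunit over its standard counterpart, with 1 point per library and the mean ± SD of DPBS (n = 3) and FAPi (n = 4). The 4 FAPi ratios of H2-D1 to H2-K1 lie at 2.95 and above, all over the DPBS ratios, and the groups overlap in the other 3 panels.

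Nlrc5 (ENSMUSG00000074151.13, chr8:94434356-94527272, plus strand, 53 exons) is the interferon-induced activator of class I genes. Nlrc5 was at 47.4, 54.0 and 65.2 CPM in DPBS and at 59.4, 85.6, 47.4 and 54.7 CPM in FAPi libraries. FAPi replicate 2 was the highest, and the other 3 FAPi libraries lay within the DPBS range. Its log2 difference was 0.15 ± 0.34 (SE, adjusted p = 0.954). On the TMM-scaled values FAPi replicate 2 was also the highest library for H2-K1 and H2-D1, while B2m was highest in DPBS replicate 3. On the deposited CPM a DPBS library was highest for both heavy chains. The maxima in DPBS and FAPi were then 2352 and 2251 CPM for H2-K1 and 8560 and 8423 CPM for H2-D1.

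The genes did not share 1 extreme library. On the TMM-scaled values DPBS replicate 1 was the lowest for 5 of the 10 genes. DPBS replicate 3, FAPi replicate 1 and FAPi replicate 2 were each the highest for 3. These places depend on the scaling, since the TMM factor was largest in DPBS replicate 1 (1.186) and smallest in FAPi replicate 2 (0.841). On the deposited CPM a FAPi library, not DPBS replicate 1, was the lowest for those 5 genes. The mean log2 CPM of the 10 genes ranged from 8.28 to 8.51 in DPBS and from 8.15 to 8.49 in FAPi libraries. Among 9507 genes ranked by their Pearson correlation with that mean over the 7 libraries, genes among the highest were Wrn (0.95), Fam196a (0.94), B4gat1 (0.94) and Kdm6a (0.94). With 7 libraries and so many genes these are descriptions, and all genes of a library share its depth and scaling.

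The wider pathway was followed in 64 other listed genes, of which 57 could be tested. None passed at an adjusted p under 0.05 in edgeR or in DESeq2, and 4 of the 57 had an unadjusted p under 0.05 in edgeR, a share no higher than the 8.14% of all tested genes. These 4 were Tapbpl, Erap1, Psme4 and Rfxank, and DESeq2 gave no adjusted p for Erap1. The median log2 difference of the 57 tested genes was -0.06, with 32 estimates lower and 25 higher in FAPi.

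Among the other class I heavy chains, 12 of 16 genes were tested, with 8 estimates lower, 4 higher and a median of -0.12. H2-M3, which presents formylated peptides, was at 24.7, 61.9 and 32.0 CPM in DPBS and at 9.79, 32.6, 18.8 and 26.9 CPM in FAPi libraries (log2 difference -0.85 ± 0.51, SE, adjusted p = 0.713), and the difference was -0.37 without DPBS replicate 2. Mr1, which presents vitamin metabolites to MAIT cells, had a log2 difference of 0.72 ± 0.49 (SE, adjusted p = 0.743). H2-Q10, best known as a secreted class I molecule of the liver, was at 122 to 154 CPM in DPBS and at 81.0 to 150 CPM in FAPi libraries. H2-Q6 was at 71.3 to 115 CPM in DPBS and at 51.7 to 80.7 CPM in FAPi libraries. H2-Q7, a nonclassical chain named here after its values were seen, was at 242.9 to 263.7 CPM in all 7 libraries. Its CV of 3.05% was the lowest of all 12930 tested genes, and it took place 15 on the deposited CPM (9.02%). On the deposited CPM every FAPi library (214.6 to 252.8) was below every DPBS library (263.5 to 286.5) for H2-Q7, a separation that TMM scaling did not keep. The share of all genes separate on the deposited CPM was not counted. Near-identical class I genes can share reads, so the levels within the H2-Q group are uncertain. For the classical genes, 0% of the 150-base pieces of H2-K1 transcripts and 1.35% of those of H2-D1 also occurred in another gene's transcripts.

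Of 8 genes for folding, trimming and loading in the endoplasmic reticulum, 3 estimates were lower and 5 higher. Tapbpl, a relative of tapasin that edits the bound peptides outside the loading complex, was at 23.5, 31.2 and 40.5 CPM in DPBS and at 41.05, 124.7, 57.9 and 80.3 CPM in FAPi libraries. All FAPi libraries were above all DPBS libraries, the nearest by 41.05 to 40.52. The log2 difference of Tapbpl was 1.26 ± 0.44 (SE, unadjusted p = 0.0157, adjusted p = 0.509). Erap1, which trims peptides, had a log2 difference of -1.66 ± 0.67 (SE, adjusted p = 0.563), with DPBS replicate 3 at 185 CPM against 21.3 to 26.3 CPM in the other 6 libraries. Without that library it was 0.09. Canx, a lectin chaperone of new heavy chains, was at 1027 to 2448 CPM in DPBS and at 1543 to 3769 CPM in FAPi (0.58 ± 0.35, SE, adjusted p = 0.711), and Pdia3, an oxidoreductase of the loading complex, had a log2 difference of -0.33 ± 0.24 (SE, adjusted p = 0.759).

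Of 8 standard catalytic subunits, activators and assembly factors of the proteasome, 5 estimates were lower and 3 higher. Psme4, an activator of the proteasome in the nucleus, was at 14.3, 11.7 and 19.8 CPM in DPBS and at 24.7, 36.4, 75.4 and 36.2 CPM in FAPi libraries. The groups were separate, and the log2 difference was 1.497 ± 0.49 (SE, unadjusted p = 0.0109, adjusted p = 0.490). Psme1, a subunit of the interferon-induced activator, had a log2 difference of -0.45 ± 0.36 (SE, adjusted p = 0.794) and the assembly factor Pomp one of -0.60 ± 0.31 (SE, adjusted p = 0.668).

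Among 13 interferon receptor and signaling genes, all of which were tested, 6 estimates were lower, 7 higher and the median was 0.12. Irf9 and Stat2, which are parts of the factor that binds interferon response elements, had log2 differences of -0.66 ± 0.37 (SE, adjusted p = 0.688) and -0.62 ± 0.35 (SE, adjusted p = 0.689). Stat2 was at 59.2 to 128 CPM in DPBS and at 51.3 to 77.7 CPM in FAPi libraries. Irf2, which competes at such elements, was at 0.64 ± 0.50 (SE, adjusted p = 0.793) and the receptor chain Ifnar1 at -0.43 ± 0.35 (SE, adjusted p = 0.795) on the log2 scale. The Irf2 value was 0.18 without FAPi replicate 3 and 1.005 without DPBS replicate 3. None of these differences passed the test, and none of the 13 genes had separate groups. Over all tested genes 3.39% were separate with FAPi higher and 3.95% with FAPi lower.

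The 10 factors that bind class I promoters gave 6 lower and 4 higher estimates, with a median of -0.05. Rfxank, a subunit of the RFX complex, was at 2.85 to 7.44 CPM in DPBS and at 12.6, 56.6, 10.8 and 8.66 CPM in FAPi libraries. Its log2 difference was 2.20 ± 0.80 (SE, unadjusted p = 0.0191, adjusted p = 0.518) and 1.13 without FAPi replicate 2, and 24.7% of its exon bases lie opposite Nr2c2ap. Of the NF-Y subunits, Nfyc was at 1.03 ± 0.49 (SE, adjusted p = 0.628) and Nfya at -0.61 ± 0.81 (SE, adjusted p = 0.902). Atf1 was at 14.87 to 27.1 CPM in DPBS and at 11.9 to 14.86 CPM in FAPi, which do not overlap by a very narrow margin, and a log2 difference of -0.50 ± 0.46 (SE, adjusted p = 0.831).

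MHC class II, which presents peptides to CD4 T cells, was listed because blood cells left in the sort would carry it. Of 9 genes 6 were tested, with 4 estimates lower, 2 higher and a median of -1.09. H2-Ab1 was at 5.91 to 31.7 CPM in DPBS and at 3.23 to 15.3 CPM in FAPi libraries, while H2-D1 and B2m were at 5248 CPM or more in each library. Cd74, the invariant chain, had a log2 difference of -1.18 ± 0.71 (SE, adjusted p = 0.713), H2-Eb1 one of -1.68 ± 0.96 (SE, adjusted p = 0.695) and H2-DMa one of -1.88 ± 1.22 (SE, adjusted p = 0.728). DPBS replicate 2 had the highest sums of B cell, monocyte and macrophage, pan-leukocyte, erythroid and neutrophil markers. Its monocyte and macrophage sum was mostly Lyz2 (353 of 362 CPM), and 4 of the 7 markers of that list had 3 counts or fewer in that library. Without that library the log2 differences were -0.01 for H2-Ab1, -1.02 for H2-Eb1, -0.55 for H2-DMa and -0.88 for Cd74. Ciita, the class II relative of Nlrc5, was named after its values were seen. It had no counts in any DPBS library, where 3 counts would be 0.284 to 0.325 CPM, was at 6.65 CPM in FAPi replicate 1, and was under that many counts in the other 3 FAPi libraries.

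Blood cells also express class I genes, so their markers are given for each group. The 9 neutrophil markers summed to 655 to 2830 CPM in DPBS and 194 to 617 CPM in FAPi libraries, led by S100a8, and the 9 erythroid markers to 1666 to 15238 CPM and 1548 to 3088 CPM, led by Hba-a1. All 9 neutrophil and all 9 erythroid estimates were lower in FAPi, beside 49.4% of all genes. Of the neutrophil genes 4 had every FAPi library below every DPBS library, beside 3.95% of all tested genes. The edgeR test called none of these 18 neutrophil and erythroid genes, beside 0% of all tested genes. At an unadjusted p under 0.05 it gave 7 neutrophil and 5 erythroid genes, beside 8.14% of all tested genes. DESeq2 called 3 of the 18, beside 1.04% of all tested genes. They were the neutrophil genes S100a8 (adjusted p = 0.0383), Lcn2 (adjusted p = 0.00226) and Mmp8 (adjusted p = 0.042), of which the last 2 are named after their values were seen. The markers of 1 cell type are not independent results. The 7 monocyte and macrophage markers, led by Lyz2, summed to 154 to 362 CPM in DPBS and 101 to 164 CPM in FAPi. The 6 B cell markers, led by Cd79b, summed to 15.4 to 213 CPM in DPBS and 14.2 to 204 CPM in FAPi, and were high in DPBS replicate 2 and FAPi replicate 1. The 5 pan-leukocyte markers, led by Spi1, summed to 11.5 to 62.3 CPM in DPBS and 16.6 to 41.1 CPM in FAPi. Of the 5 T and NK cell markers Cd3e, Cd3d, Cd8a and Klrb1c were at 0 in every library, and Nkg7 reached at most 3.70 CPM. The 6 endothelial markers summed to 25.1 to 61.6 CPM in DPBS and 22.3 to 358 CPM in FAPi, with Kdr at 340 CPM in FAPi replicate 1, and the 3 megakaryocyte markers, led by Pf4, to 69.6 to 258 CPM and 48.8 to 113 CPM. In bulk samples a change in the number of such cells and a change in RNA per cell cannot be told apart.

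With the blood cell markers as a covariate in the fit, all 10 class I genes again missed the threshold, as did all 12930 tested genes. This fit therefore says nothing particular about the class I genes. DPBS replicate 2, the library with the most neutrophil and erythroid RNA, was the highest of the 7 libraries for Psmb8 and the lowest for H2-D1. How far the blood cell RNA contributes to the class I levels was not tested.

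**Figure D4:**
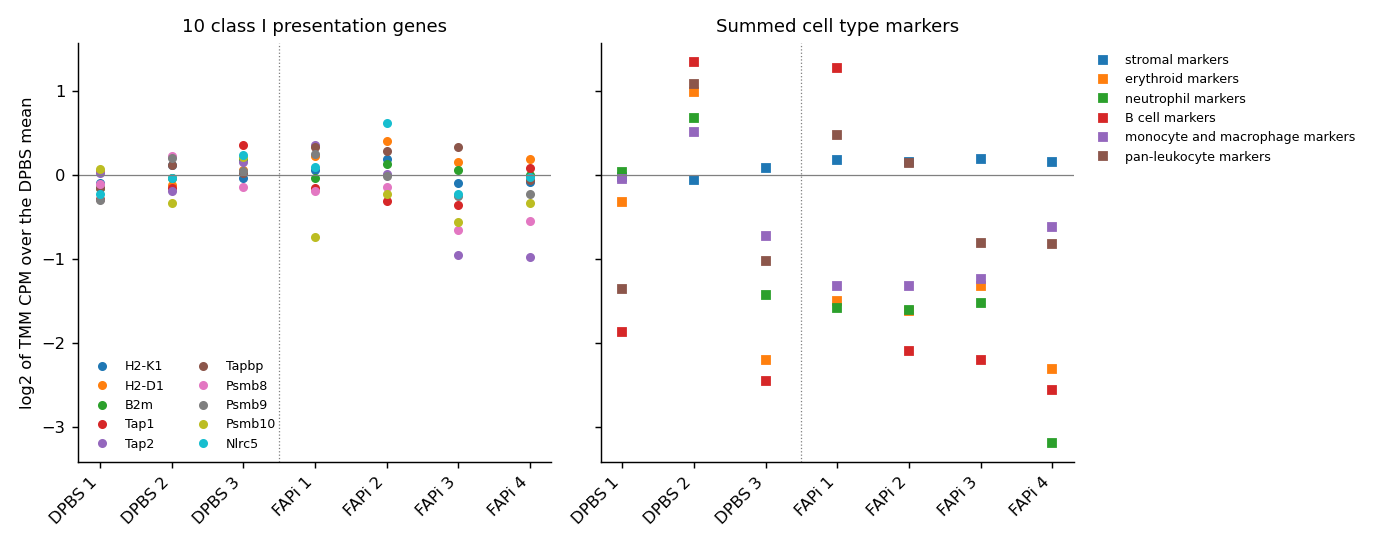
The log2 of each library's CPM over the DPBS mean is plotted for the 10 class I genes (left) and for 6 summed lists of cell type markers (right), with 1 point per gene or list in each library. Every class I gene stays within about 1 log2 unit of the DPBS mean, while the blood cell lists range more widely and are mostly highest in DPBS replicate 2.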

How the data were processed

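The authors deposited a table of read counts and a table of CPM for each of the 7 libraries (3 DPBS, 4 FAPi). The submitters' processing notes name STAR, HTSeq and the build mm10. The sources used here do not give versions, annotation or strand setting. The deposited CPM equal the deposited counts over the library total to within 4.55e-05 CPM. A tag in the names of the count tables can be read as duplicate removal, a step that no protocol describes.

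Counts were tested with edgeR 4.0.16 in R 4.3.3. Genes passed filterByExpr at a minimum count of 10, which left 12930. Libraries were scaled by TMM, and FAPi was tested against DPBS by glmQLFit and glmQLFTest (robust), with Benjamini-Hochberg adjustment over all tested genes and a threshold of 0.05. An SE is the log2 difference over the square root of F. DESeq2 1.42.0, limma 3.58.1 (voom, and limma on log2 of deposited CPM plus a pseudocount of 1 or 0.1), other scalings and filters, leaving out each library, and a covariate (the mean log2 CPM of 31 blood cell markers) were alternatives. The script was tested on simulated data. Gene symbols, exons and coordinates are from GENCODE M21, which matched 53706 of 53801 IDs without version, and promoters from RefSeq.

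The members and gene lists were chosen with earlier results of these data known. The text names all 10 members, up to 4 genes of each other pathway list by smallest p with Psmb5, Psmb6 and Psmb7, the most abundant gene of each marker list, and the 5 genes most correlated with the members, of which 1 is not reported here. Each library is from its own mouse, per the labels. A floor of 3 counts is 0.284 to 0.400 CPM. It covers counting error only, since reads without molecular identifiers are not independent molecules.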

Additional observations from a re-analysis of the deposited data

Results flagged for a closer look

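In the 4 FAPi libraries, a value was marked where its gap to the nearest other library, as a part of the group's range, was above Dixon's 95% limit. Of 45 genes and ratios checked 6 were marked, where chance alone marks about 1 in 20. The 3 DPBS libraries are too few for this check. Tapbp was low in FAPi replicate 4 (687 CPM, 872 to 908 CPM in the other 3, gap 0.840). Psmb7 was high in FAPi replicate 1 (19.8 CPM, 3.23 to 4.33 CPM in the others, gap 0.934). Rfxank was high in FAPi replicate 2 (56.6 CPM, 8.66 to 12.6 CPM in the others, gap 0.919). H2-DMa was high in FAPi replicate 3 (6.06 CPM, 0.502 to 0.977 CPM in the others, gap 0.915). Atf1 was low in FAPi replicate 3 (11.9 CPM, 14.6 to 14.9 CPM in the others, gap 0.899), and Nfya was low in FAPi replicate 4 (1.54 CPM, 6.03 to 6.29 CPM in the others, gap 0.944). No cause was tested.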

How the results depend on the processing

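None of the 10 class I genes passed an adjusted p of 0.05 under any of the 18 alternatives. Of 180 such values, 158 kept the direction and 22 reversed it, for H2-K1, B2m, Tap1, Psmb9 or Nlrc5. Over all genes, DESeq2 called 84 higher and 51 lower in FAPi, limma on the deposited CPM 4 higher and 2 lower at either pseudocount, voom 1 higher, the fit without a filter 5 higher and 1 lower, and an adjusted p under 0.1 gave 1 higher. Leaving out 1 library gave 0 to 2 genes higher and 0 to 1 lower, with all of these calls made without DPBS replicate 3.

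Scaling by library size alone or limma on CPM moved the median of all genes by -0.17 to -0.19 on the log2 scale, and 8 class I genes then had estimates below 0. H2-K1 was -0.15 with limma and with library size and -0.01 with upper-quartile factors, B2m was -0.13 in those first settings, and Nlrc5 was -0.043 and -0.044 with limma and -0.03 with library size. With the blood marker covariate B2m was -0.042, Psmb9 0.059, Psmb7 0.23 and H2-DMa 0.92. Leaving out 1 library gave ranges of -0.049 to 0.089 for H2-K1, -0.041 to 0.13 for B2m, -0.31 to 0.044 for Tap1, -0.18 to 0.063 for Psmb9, -0.057 to 0.28 for Nlrc5, -2.12 to 0.088 for Erap1 and -0.95 to 0.001 for Nfya. Leaving out 1 library also moved other genes by over 1.5 times without reversing them, among them Tapbp 0.15 and Psmb5 0.74 without DPBS replicate 1, Psmb8 -0.25, Psmb6 -0.29, Pomp -0.33, Psme1 -0.20, H2-Q6 -0.15 and Mr1 0.45 without DPBS replicate 2, Atf1 -0.20, Irf9 -0.40, Pdia3 -0.20 and Canx 0.89 without DPBS replicate 3, Ifnar1 -0.24, Stat2 -0.36 and Canx 0.30 without DPBS replicate 1, Psmb5 0.17 and Psme1 -0.75 without FAPi replicate 4, and H2-Q10 -0.62 and H2-Ab1 -1.54 without FAPi replicate 1. H2-Eb1 was -2.66 without FAPi replicate 2. The cause was not tested.

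With a replicate block for the number 1 to 3 shared by the groups, 0 genes were called in either direction and Psmb9 was 0.015. Same-numbered libraries did not deviate together (correlations -0.008, -0.018 and -0.051). With so few libraries these values cannot settle whether the numbers pair the mice.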
